A study of Mus musculus with 21 samples.

Results

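Liver gene expression after 8 weeks of CDA-HFD, a high-fat diet of defined amino acids that lacks choline, was compared with that of chow-fed liver. The members were taken from the diet and time labels, which gave 5 chow libraries and 8 libraries at 8 weeks, or 13 of the 21 in the series. All mice were wild type. The chow mice had been on normal chow for 8 weeks when sampled, a point the labels denote week 0, and the other mice had been on CDA-HFD for 8 weeks. The week in the labels and the diet differ together between the groups, so their parts cannot be told apart. Strain, sex, age, batch and pooling of animals are not in the labels, so p-values measure the spread between these samples. The remaining 8 libraries, from 16 weeks of the diet, entered the filter on low counts, the scaling and the fit for the spread of each gene. They also entered the choice of the most abundant genes. Their own levels are not given below.

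Choline is needed to make phosphatidylcholine, and phosphatidylcholine is needed to package triglyceride into very-low-density lipoprotein. Without choline the liver keeps the fat it would export, hepatocytes are injured, and macrophages and matrix-producing stellate cells respond, which is why the diet is used as a model of steatohepatitis with fibrosis. Most RNA of a bulk liver library comes from hepatocytes. In such a library fewer cells of a type and less RNA per cell cannot be told apart, which holds for every gene below.

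Levels are given as CPM (counts per 1000000 after TMM scaling of the library size), mean ± SD over 5 chow and 8 CDA-HFD livers. A gene rose or fell if edgeR's quasi-likelihood test gave an adjusted p (Benjamini-Hochberg, over all 17104 genes tested) under 0.05. Changes are log2, 8 weeks of CDA-HFD minus chow. Where a pair of changes is joined by a slash, the first is from all libraries and the second is from the fit without replicate 3 of the 8-week group.

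One library, replicate 3 at 8 weeks, stood apart from the rest. Across genes its log2 CPM correlated with the other 8-week libraries at r = 0.831 to 0.898, whereas those libraries correlated with each other at 0.961 to 0.994. Total counts ranged from 29037525 in this library to 45868842. Skeletal muscle transcripts (15 genes, among them Acta1 and Ckm) summed to 3558 CPM in it, and to 436 CPM in 8-week replicate 6 and 585 CPM in chow replicate 5. Squamous epithelium transcripts (10 measured, led by Krt13) summed to 2015 CPM in it and 308 CPM in replicate 6, against at most 1.04 CPM on chow. Exocrine pancreas transcripts (12 measured) reached 10289 CPM in 8-week replicate 4 and 478 CPM in replicate 5, against 16.9 to 31.6 CPM on chow. The 10 liver-defining genes, such as Alb and Apoa1, summed to between 105157 and 425287 CPM in every one of the 13 libraries, so all held liver RNA. The part of the other tissues in the results below was not tested, apart from the fits without replicates 3 and 4.

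**Figure D1:**
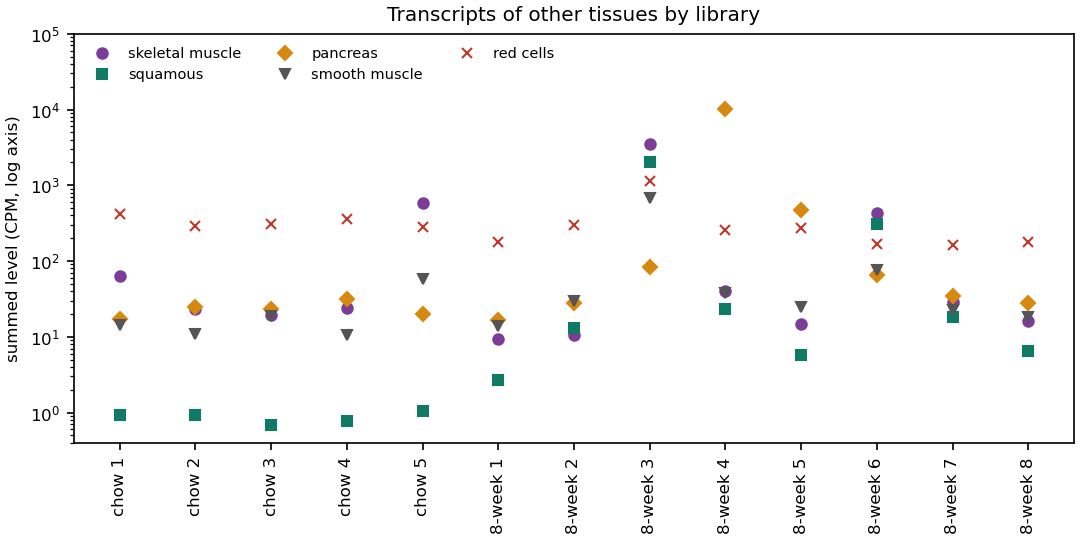
Summed level of transcripts of other tissues in each of the 13 libraries, in CPM on a log axis; each symbol is one tissue's gene list. Muscle and squamous transcripts peak in 8-week replicate 3 and pancreas transcripts in 8-week replicate 4.

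The change was broad. At an adjusted p under 0.05, 51.3% of the genes tested changed: 5269 rose (30.8%) and 3503 fell (20.5%). Without replicate 3, 57.2% changed (31.5% rose and 25.8% fell), 8326 genes passed in both fits in the same direction, and 0 passed in opposite directions. The groups did not overlap in 30.1% of the genes tested. Many genes named below were picked from these, so for them the lack of overlap was a condition of choice. The higher genes of every group below are to be read against the 30.8% that rose anywhere, and the lower ones against 20.5%. Rises were also larger than falls, with 1419 genes up at least 4-fold and 197 down at least 4-fold. In 473 of the genes that rose, replicate 3 alone held more than 50% of the summed 8-week CPM, and 279 of these also passed without it. Scaling by total counts moved the median change of all genes from 0.16 to 0.28, and the share of rises among called genes from 60.1% to 78.3%.

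Rises and falls divided by abundance. Among the 134 genes with a mean of 1000 CPM or more, 12.7% rose and 36.6% fell, and among the 3759 genes under 1 CPM 36.1% rose and 8.11% fell. The abundant genes of mouse liver are mostly hepatocyte products. Of 1101 long non-coding RNA genes 334 rose and 174 fell, and of 1256 pseudogenes 180 rose and 225 fell.

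**Figure D2:**
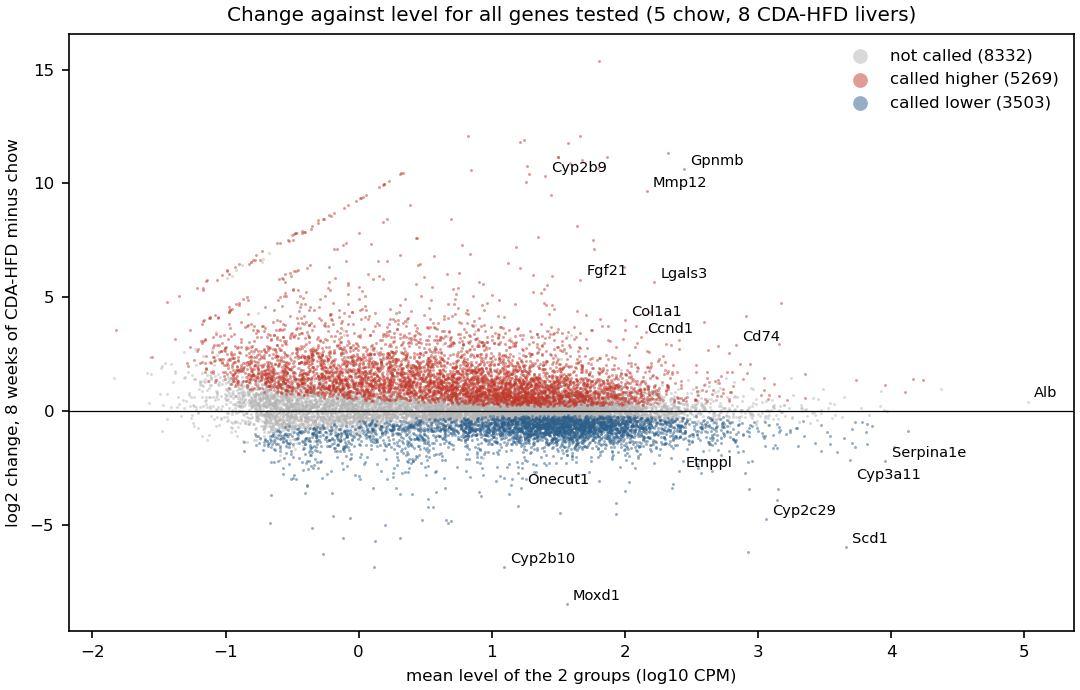
Log2 change (8 weeks of CDA-HFD minus chow) against the mean level of both groups in log10 CPM for all genes tested; each point is a gene, coloured by its call. The rises extend further than the falls, and the most abundant genes lie mostly at or under 0.

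Calls also differed by transcript length, with a trend that was strong in some diet libraries and weak or absent in others. Among genes at 10 CPM or more, those with at least 8000 bases of exon fell in 55.8% of cases and rose in 8.37%, while those of 1000 to 2000 bases fell in 10.3% and rose in 38.2%. Within a library, the median of the long genes minus that of the short ones lay between -0.11 and 0.086 (log2) on chow. It was -3.14 in 8-week replicate 3, -1.54 in replicate 2, -1.21 in replicate 4 and -0.77 in replicate 5, and between -0.42 and -0.054 in the other 4. RNA integrity is not in the labels, and its part in this was not tested. With a smooth length trend removed from every library, 4908 genes rose and 3787 fell, 4451 and 3033 of them the same as before, and the share of long genes that fell was 37.2%.

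**Figure D3:**
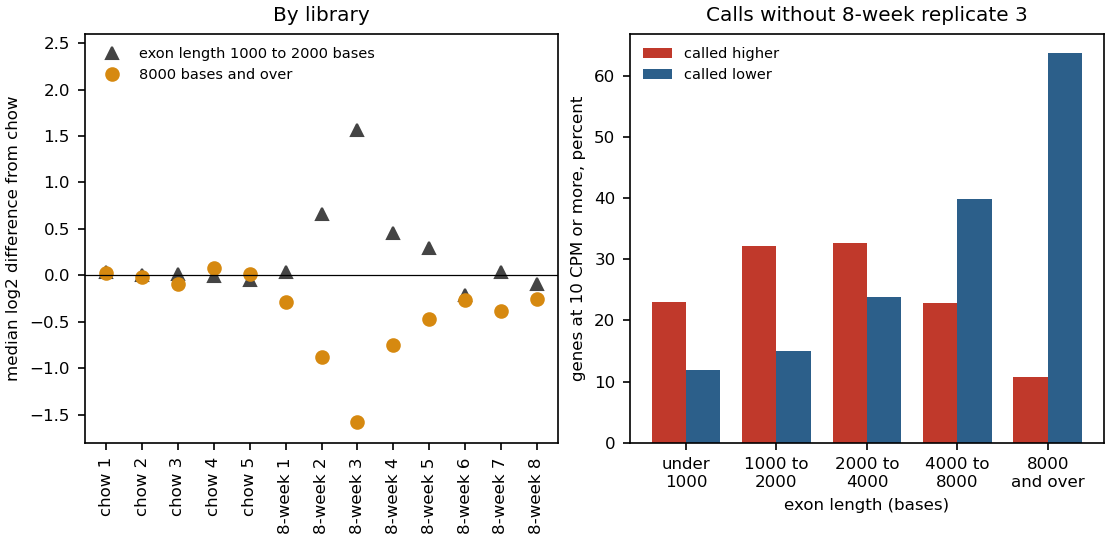
Left, median log2 difference from the chow mean in each library for genes of 1000 to 2000 and of 8000 or more exon bases; right, percent of genes at 10 CPM or more that were called, by exon length, without 8-week replicate 3. The 5 chow libraries lie near 0 for both lengths, and the 2 lengths part furthest in 8-week replicate 3.

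Macrophage genes were among the largest rises, but not all of them rose. Of 16 genes of scar-associated macrophages, 14 rose and 0 fell (14 and 0 without replicate 3), with a median log2 change of 3.75 / 3.54. Of 13 genes of resident macrophages (Kupffer cells), 5 rose, 1 fell and 7 did not pass (6, 1 and 6 without replicate 3), with a median of 0.46 / 0.50. Gpnmb, a glycoprotein of lipid-laden macrophages, changed by 10.62 / 10.71 and Mmp12, the macrophage elastase, by 9.65 / 9.70. Clec4d, a C-type lectin receptor of myeloid cells, stood at 0.110, 0.143, 0.304, 0.174 and 0.685 CPM in the 5 chow livers, against a lowest, median and highest value of 5.81, 23.9 and 65.8 CPM in the 8 livers on the diet. The groups were far apart, and the change was 6.48 ± 0.60 SE (edgeR, adjusted p = 4.2e-08), or 6.11 without replicate 3 (edgeR, adjusted p = 5.9e-09). It was 7.13 without chow replicate 5, the chow liver in which it was highest. Capg, an actin-capping protein of macrophages, changed by 6.31 / 4.88 and Adam8, a protease of leukocytes, by 5.97 / 5.94. Of 24 scavenger and lectin receptor genes, 20 rose and 1 fell (21 and 1 without replicate 3), with a median log2 change of 2.10 / 1.91. Clec7a, which binds fungal beta-glucan, stood at 5.70, 5.28, 5.26, 4.05 and 6.27 CPM in the 5 chow livers, against a lowest, median and highest value of 40.1, 95.3 and 141 CPM in the 8 livers on the diet. No chow liver reached the lowest value on the diet. Lgals3 (galectin-3) changed by 5.67 / 5.44, Clec4e by 4.91 / 4.97 (5.65 without chow replicate 5) and Cd36, a scavenger receptor and fatty acid carrier, by 2.19 / 2.28. The exception was Colec12, a scavenger receptor with a collectin domain, at -1.19 / -1.07.

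Lysosomal genes rose in part. Among the lysosomal genes, 21 of 32 rose and 1 fell (22 and 1 without replicate 3), and the median log2 change was 0.79 / 0.73. Ctss, a protease that matures MHC class II, stood at 54.3, 48.3, 50.7, 51.4 and 60.2 CPM in the 5 chow livers, against a lowest, median and highest value of 213, 486 and 706 CPM in the 8 livers on the diet. The groups did not overlap, and the change was 3.11 ± 0.30 SE (edgeR, adjusted p = 6.3e-08), or 3.21 without replicate 3 (edgeR, adjusted p = 7.3e-09). Ctsk, a collagen-degrading cathepsin, changed by 3.86 / 3.89, Ctsd by 2.93 / 1.88 and Npc2, which carries cholesterol out of the lysosome, by 1.61 / 1.21. The calcium channel Mcoln1 (-0.10 / -0.019), Npc1 (-0.13 / -0.066) and the membrane protein Lamp1 (-0.13 / -0.014) did not pass the test, and Lamp2 fell (-0.53 / -0.46).

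Sensors of microbial and danger signals moved unequally. Of 19 Toll-like receptor pathway genes, 11 rose and 2 fell (12 and 3 without replicate 3), with a median log2 change of 0.69 / 0.79. Cd14, the lipopolysaccharide co-receptor, changed by 3.69 / 3.26, Tlr13, which senses bacterial ribosomal RNA, by 2.92 / 2.94 and Tlr1 by 2.70 / 2.77. Tlr5, the flagellin receptor, went the other way, with 9.41, 16, 13.8, 17.4 and 13.5 CPM on chow and 2.09, 4.33 and 5.90 CPM (lowest, median, highest) on the diet. Every liver on the diet was below every chow liver (-1.83 / -1.75). Among the inflammasome and necroptosis genes, 14 of 17 rose and 1 fell (14 and 1 without replicate 3), and the median log2 change was 1.30 / 1.29. The adaptor Pycard changed by 3.07 / 2.55, the necroptosis kinase Ripk3 by 2.49 / 2.11, its target Mlkl by 1.29 / 1.24 and caspase 1 (Casp1) by 2.02 / 1.94. Casp8 (-0.15 / -0.022) and the cytokine Il18 (-0.18 / -0.13) did not pass the test.

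Cytokine signalling genes mostly rose, and receptors of the interleukin-6 family were among the falls. Of 38 cytokine and cytokine receptor genes, 25 rose and 4 fell (27 and 5 without replicate 3), with a median log2 change of 1.35 / 1.25. Il1rn, which encodes the interleukin-1 receptor antagonist, stood at 4.08, 1.61, 4.82, 1.97 and 6.52 CPM in the 5 chow livers, against a lowest, median and highest value of 21, 41.2 and 52.9 CPM in the 8 livers on the diet. The lowest liver on the diet was above the highest chow liver. Tnf changed by 4.05 / 4.10, Il7r by 3.49 / 3.48 and Il2rg, the receptor chain shared by several interleukins, by 2.31 / 2.19. Lifr, the receptor of leukemia inhibitory factor, fell, with 621, 439, 489, 888 and 446 CPM on chow and 39.8, 116 and 174 CPM (lowest, median, highest) on the diet, and its change was -2.33 ± 0.26 SE (edgeR, adjusted p = 3.8e-07), or -2.21 without replicate 3 (edgeR, adjusted p = 2.0e-08). Its partner Il6st, the chain shared by this family, changed by -0.79 / -0.72. Il6ra, at -0.21 / -0.11, did not pass the test.

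Chemokine receptors had 14 members that rose and 0 that fell out of 19 measured (15 and 0 without replicate 3), with a median log2 change of 1.30 / 1.34. Cx3cr1, the fractalkine receptor of monocyte-derived cells, stood at 0.956, 1.35, 2.09, 0.782 and 1.97 CPM in the 5 chow livers, against a lowest, median and highest value of 7.16, 18.7 and 31.8 CPM in the 8 livers on the diet, and the groups did not overlap. Ccr2, which draws monocytes from blood, changed by 2.93 / 2.94 and Ccr7, of migrating dendritic and T cells, by 2.93 / 2.38. Among the T cell effector and checkpoint genes, 19 of 21 rose and 1 fell (19 and 1 without replicate 3), and the median log2 change was 1.97 / 1.95. These transcripts were rare. Cd8a, the co-receptor of cytotoxic T cells, stood at 0.0869 to 0.515 CPM on chow and 1.15 to 9.59 CPM on the diet (3.72 / 3.81). Gzmk, a granzyme, changed by 6.32 / 6.46 (8.68 without chow replicate 5) and Pdcd1, the checkpoint receptor PD-1, by 5.61 / 5.65 (6.43 without chow replicate 5), whereas Cd4, the helper T cell co-receptor, fell (-1.22 / -1.26).

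Antigen presentation rose nearly throughout. Of 22 MHC and antigen presentation genes, 20 rose and 0 fell (21 and 0 without replicate 3), with a median log2 change of 1.23 / 1.12. Cd74, the invariant chain of MHC class II, stood at 201, 155, 132, 183 and 141 CPM in the 5 chow livers, against a lowest, median and highest value of 296, 724 and 4885 CPM in the 8 livers on the diet. All 8 diet livers were above the chow livers, and the change was 2.88 ± 0.54 SE (edgeR, adjusted p = 2.1e-04), or 2.04 without replicate 3 (edgeR, adjusted p = 2.0e-06). H2-Eb1 changed by 2.60 / 2.08, H2-DMa, which loads peptide on class II, by 2.52 / 2.11 and Ciita, the class II transactivator, by 1.46 / 1.51. The class I gene H2-K1 changed by 0.67 / 0.57 and the immunoproteasome subunit Psmb8 by 2.03 / 1.15. Nlrc5, the transactivator of class I, at 0.080 / 0.078, did not pass the test.

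Interferon-stimulated genes had 14 members that rose and 0 that fell out of 18 measured (16 and 0 without replicate 3), with a median log2 change of 1.33 / 1.08. Oas1a, which makes the activator of RNase L, stood at 1.10, 1.58, 2.09, 1.59 and 2.63 CPM on chow and 7.52, 9.86 and 43.4 CPM (lowest, median, highest) on the diet. No chow liver reached the lowest diet value (3.02 / 2.54). Isg15, a ubiquitin-like modifier, changed by 2.0 / 1.79, Usp18, which removes it, by 2.10 / 1.96 and the transcription factor Irf7 by 1.87 / 1.13. Interferon acts through a promoter element read by ISGF3 and interferon regulatory factors. The core, a pair of GAAA repeats with any 2 bases between them, was searched on both strands in the 250 bases before each start, from RefSeq (GRCm38.p6). It was present in 7 of the 15 list genes with a promoter entry and in 3.46% of 27025 genes. Of the 11 list genes with an entry that rose, 5 held it. The windows of 4 of the genes that rose are shown because they carry that element, in capitals, 5′ to 3′ on the gene's strand. A capital run that begins with TTTC is the element on the opposite strand.
Isg15 (chr4:156200865-156200906, minus strand): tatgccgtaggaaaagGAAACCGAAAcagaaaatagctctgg
Oas1a (chr5:120907526-120907561, minus strand): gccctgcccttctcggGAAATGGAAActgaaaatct
Ifit3 (chr19:34583391-34583432, plus strand): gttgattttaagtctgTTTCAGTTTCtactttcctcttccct
Ifit1 (chr19:34640769-34640810, plus strand): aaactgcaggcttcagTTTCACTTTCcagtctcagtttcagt
Of the 4 genes, Ifit3 changed by 1.58 / 1.24 and Ifit1 by 0.81 / 0.75. The element was also before Bst2 (0.53 / 0.28) and Stat2 (-0.017 / -0.034), which did not pass the test.

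Complement genes moved both ways. Of 29 complement genes, 7 rose and 10 fell (7 and 10 without replicate 3), with a median log2 change of -0.20 / -0.23. The anaphylatoxin receptors C3ar1 (3.25 / 3.05) and C5ar1 (3.12 / 3.17) rose, as did the C1q chains, which macrophages make, with C1qb from 68.6 ± 10.8 to 445 ± 495 CPM (2.70 / 1.98). The falls held genes of the membrane attack complex. Hepatocytes make C8a (-1.18 / -1.21), C8b (-1.08 / -1.19) and Hc, the gene of C5 (-1.09 / -1.10). C6 (-1.45 / -1.33) is also on the Kupffer cell list. C8a stood at 1479.9, 1464, 1595, 1489 and 1678 CPM on chow and 334, 692 and 921 CPM (lowest, median, highest) on the diet, without overlap. Mbl2, a mannose-binding lectin, changed by -0.98 / -1.08. C3 (0.0074 / -0.11) and C4b (0.13 / -0.16) did not pass the test.

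In coagulation and fibrinolysis 7 of 30 genes rose and 7 fell (7 and 9 without replicate 3). By total counts 2 fell. The share that rose was below that of all genes and the share that fell was close to it. The rises included genes of the plasminogen activator system: Plaur, the urokinase receptor, with 0.735, 0.774, 1.35, 0.840 and 1.26 CPM on chow and 3.13, 10.9 and 17 CPM (lowest, median, highest) on the diet and no overlap (3.36 / 3.48), Plau (2.84 / 2.98) and Plat (2.80 / 2.95). The falls included F5 (-1.01 / -0.95) and antithrombin, Serpinc1 (-0.44 / -0.37). Among the eicosanoid genes, 18 of 26 rose and 1 fell (17 and 1 without replicate 3), and the median log2 change was 1.36 / 1.18. Hpgds, which makes prostaglandin D2 in hematopoietic cells, changed by 2.99 / 3.03, Alox5ap, the activator of 5-lipoxygenase, by 2.89 / 2.88 and thromboxane synthase, Tbxas1, by 2.31 / 2.20. Ephx2, an epoxide hydrolase abundant in hepatocytes, stood at 946 to 1194 CPM on chow and 469 to 777 CPM on the diet and fell (-0.76 / -0.82).

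Growth factor ligands and receptors were called about as often as all genes. Of 39 growth factor ligands and receptors, 13 rose and 6 fell (15 and 6 without replicate 3), with a median log2 change of 0.25 / 0.30. Platelet-derived growth factor genes Pdgfa (2.36 / 2.03) and Pdgfb (2.19 / 2.27), and Areg, a ligand of the EGF receptor (5.05 / 5.10, and 5.91 without chow replicate 4), rose. The receptor Egfr itself fell, with 1055, 597, 887, 1016 and 1126 CPM on chow and 134, 306 and 380.0 CPM (lowest, median, highest) on the diet. The lowest chow liver was above the highest liver on the diet, and the change was -1.78 ± 0.30 SE (edgeR, adjusted p = 5.6e-05), or -1.70 without replicate 3 (edgeR, adjusted p = 3.9e-05). Met, the receptor of hepatocyte growth factor, changed by -1.15 / -1.01 and Kdr, a VEGF receptor of endothelium, by -0.83 / -0.72. Among the Notch, Hedgehog, Hippo and Wnt genes, 14 of 46 rose and 4 fell (15 and 6 without replicate 3), and the median log2 change was 0.17 / 0.25. The share that rose was near that of all genes, and the share that fell was lower. Frzb, a secreted Wnt antagonist, changed by 2.40 / 2.41, Hes1, a Notch target, by 1.20 / 1.31 and Ptch1, the Hedgehog receptor, by -1.18 / -1.06.

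Cytoskeletal genes rose almost as a whole. Of 29 cytoskeletal genes, 27 rose and 0 fell (27 and 0 without replicate 3), with a median log2 change of 1.60 / 1.21. Vim, the intermediate filament of mesenchymal cells and leukocytes, stood at 22.7, 24.3, 33.4, 20.1 and 37.7 CPM in the 5 chow livers, against a lowest, median and highest value of 86.5, 217 and 416 CPM in the 8 livers on the diet. The groups did not overlap, and the change was 2.99 ± 0.31 SE (edgeR, adjusted p = 1.4e-07), or 2.78 without replicate 3 (edgeR, adjusted p = 2.8e-08). Coro1a, of leukocyte actin, changed by 3.16 / 2.72, Tubb6, a beta-tubulin, by 2.90 / 2.34 and the actin-binding peptide gene Tmsb4x by 2.69 / 2.19. Among the annexin and S100 genes, 16 of 22 rose and 0 fell (15 and 1 without replicate 3), and the median log2 change was 1.92 / 1.53. Anxa2 rose from 17.1 ± 3.0 to 225 ± 111 CPM (3.72 / 3.58), S100a4 changed by 5.15 / 4.60 and S100a6 by 3.51 / 2.77. Of 27 matrix genes, 23 rose and 1 fell (23 and 1 without replicate 3), with a median log2 change of 1.69 / 1.65. Lum, a small proteoglycan of collagen fibrils, changed by 2.76 / 2.79 and Loxl1, of elastin crosslinking, by 2.48 / 2.29, while Fn1, fibronectin, which hepatocytes secrete into plasma, fell (-0.85 / -0.71). There were 9 rises and 4 falls among 23 retinoid genes (9 and 6 without replicate 3), at a median log2 change of 0.27 / 0.20. The retinoic acid hydroxylases Cyp26a1 (-2.34 / -2.19, and -1.70 without chow replicate 1) and Cyp26b1 (-2.25 / -2.12) fell. Lrat, which esterifies retinol in stellate cells, did not pass the test (-0.27 / -0.18).

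Genes of the integrated stress response rose strongly. Of 25 genes of this response, 16 rose and 0 fell (18 and 0 without replicate 3), with a median log2 change of 1.11 / 1.01. Fgf21, the hepatokine of fasting and amino acid shortage, stood at 0.735, 2.87, 1.35, 2.06 and 1.26 CPM in the 5 chow livers, against a lowest, median and highest value of 19.7, 93 and 162 CPM in the 8 livers on the diet. Every diet liver exceeded every chow liver, and the change was 5.77 ± 0.64 SE (edgeR, adjusted p = 4.4e-07), or 5.90 without replicate 3 (edgeR, adjusted p = 6.2e-08). Slc7a11, the cystine importer, stood at 0.110, 0, 0.0675, 0 and 0.137 CPM on chow and 1.53, 5.02 and 9.69 CPM (lowest, median, highest) on the diet. The lowest liver on the diet was above the highest chow liver (6.47 / 6.60). Trib3, a pseudokinase that restrains the response, changed by 4.27 / 4.31, Nupr1 by 5.21 / 4.53, Atf3 by 3.49 / 3.55 (4.25 without chow replicate 4), Ddit3 (CHOP) by 2.62 / 1.76 and Asns, asparagine synthetase, by 1.11 / 0.74. The transcript of Atf4, a factor controlled mainly at translation, passed with a small change (0.43 / 0.51). It missed when any 1 of the 5 chow libraries, or 8-week replicate 2, 4 or 7, was left out, with changes from 0.34 to 0.44. Sesn2 (0.21 / 0.27) and Ppp1r15a, GADD34 (0.10 / 0.16), did not pass the test.

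ATF4 with a C/EBP partner reads a composite element. Its letters TGATGNAAN were present, on either strand of the 250 bases before the start, in 7 of 23 genes of the list with a RefSeq promoter entry, against 3.89% of 27025 genes. Of the 7, 6 rose, out of 14 list genes with a promoter entry that rose. These 6 are printed because they rose and carry the element, shown in capitals on the gene's strand. Runs that end in CATCA are the element on the opposite strand.
Atf3 (chr1:191183420-191183460, minus strand): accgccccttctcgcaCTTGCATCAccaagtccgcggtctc
Chac1 (chr2:119351032-119351072, plus strand): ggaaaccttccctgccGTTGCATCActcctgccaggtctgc
Slc7a11 (chr3:50443655-50443695, minus strand): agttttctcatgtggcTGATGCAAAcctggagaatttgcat
Slc7a11 (chr3:50443637-50443677, minus strand): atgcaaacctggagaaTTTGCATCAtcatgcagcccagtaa
Asns (chr6:7693210-7693248, minus strand): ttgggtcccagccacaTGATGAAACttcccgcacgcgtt
Fgf21 (chr7:45615606-45615646, minus strand): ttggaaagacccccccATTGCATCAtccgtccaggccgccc
Nupr1 (chr7:126625557-126625597, minus strand): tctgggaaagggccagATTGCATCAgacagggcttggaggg
Slc7a11 held the element in both orientations within its window. For 3 more lists the same search gave CACGTG, the site of TFEB, in 8 of 23 lysosomal promoters (6.86% of all genes), TGACNNNGC, of NRF2, in 6 of 18 NRF2 targets (11.5%) and TTTGAA, of the cell cycle element CHR, in 8 of 26 cell cycle genes (18.3%). Of these carriers, 4 lysosomal genes, 1 NRF2 target and 8 cell cycle genes rose. Among all genes of these lists with a promoter entry, 15 of 23, 8 of 18 and 23 of 26 rose. A palindrome such as CACGTG reads the same on both strands. Chac1, which degrades glutathione, changed by 1.71 / 1.82. Vldlr, a lipoprotein receptor with the element at its promoter, did not pass the test (-0.095 / 0.013).

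Few genes of the endoplasmic reticulum response rose. Of 24 unfolded protein response genes, 2 rose and 6 fell (4 and 7 without replicate 3). The falls numbered 2 by total counts, where the median change was 0.059 instead of -0.12. Hspa5, the chaperone BiP, stood at 856, 1037, 1122, 1509.6 and 1214 CPM in the 5 chow livers, against a lowest, median and highest value of 463, 1256 and 1486 CPM in the 8 livers on the diet. The groups overlapped, and it did not pass the test (0.054 / 0.16). Manf rose (0.99 / 0.79). The stress sensor Ern1 (-0.93 / -0.79) fell, and its adjusted p was 0.0598 (edgeR) without chow replicate 4, at -0.81. Edem1, which sends misfolded proteins to degradation, changed by -0.71 / -0.62.

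Oxidant defence was divided. Of 23 NRF2 target genes 9 rose and 8 fell (9 and 9 without replicate 3), and 5 fell by total counts. G6pdx, the first enzyme of the pentose phosphate pathway, rose from 5.0 ± 0.235 to 23.2 ± 7.14 CPM (2.21 / 2.08), and Hmox1, heme oxygenase, changed by 1.68 / 1.83. Me1, malic enzyme, another source of NADPH, fell, with 56.8, 122, 98.4, 102 and 82.6 CPM on chow and 6.88, 13.6 and 26.7 CPM (lowest, median, highest) on the diet. No liver on the diet reached the lowest chow value (-2.67 / -2.58). Both subunits of the enzyme that limits glutathione synthesis fell, Gclc (-0.86 / -0.71) and Gclm (-0.72 / -0.58). Catalase, Cat, stood at 4517, 5095, 4435, 5352 and 4210.4 CPM on chow and 1210.0, 2133 and 3037 CPM (lowest, median, highest) on the diet and fell without overlap (-1.10 / -1.03). Among 18 antioxidant and selenoprotein genes, 4 rose and 3 fell, near the background.

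Iron genes included one of the larger rises. Iron handling genes had 10 members that rose and 3 that fell out of 26 measured (10 and 4 without replicate 3), with a median log2 change of 0.25 / 0.27. Lcn2, lipocalin-2, which binds bacterial iron carriers, stood at 10.1, 4.22, 52.8, 3.01 and 177 CPM in the 5 chow livers, against a lowest, median and highest value of 354, 677 and 1695 CPM in the 8 livers on the diet. Chow replicate 5 was far above the other chow livers and still below every liver on the diet. The change was 3.91 / 3.60, or 5.40 without that library. Slc11a1, the iron exporter of phagosomes, changed by 2.67 / 2.45. Hepcidin, Hamp, did not pass the test (-0.041 / -0.17).

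P53 and senescence genes had 10 members that rose and 1 that fell out of 20 measured (12 and 1 without replicate 3), with a median log2 change of 0.64 / 0.73. Cdkn2a (3.74 / 3.33, and 4.36 without chow replicate 2), Phlda3 (2.96 / 2.56) and the death gene Bax (1.05 / 0.80) rose, while the p53 targets Cdkn1a, p21 (0.59 / 0.51), and Mdm2 (-0.30 / -0.18) did not pass the test and Trp53inp1 fell (-1.29 / -1.17). Immediate early genes were mixed. Of 21 immediate early genes, 8 rose and 3 fell (8 and 2 without replicate 3), with a median log2 change of 0.26 / 0.43. Egr2 changed by 4.15 / 4.23 (4.87 without chow replicate 4) and Klf6 by 1.91 / 2.03, Nr4a1 fell (-1.65 / -1.49), and Fos (-0.90 / -0.74) and Jun (-0.16 / -0.046) did not pass the test.

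Transcription factors of the hepatocyte fell. Of 30 hepatocyte transcription factors and nuclear receptors, 1 rose and 15 fell (1 and 17 without replicate 3), with a median log2 change of -0.54 / -0.48. Onecut1, HNF6, which acts in hepatocyte and bile duct development, stood at 28.1, 5.45, 25.6, 68.2 and 24.8 CPM in the 5 chow livers, against a lowest, median and highest value of 0.904, 2.93 and 4.92 CPM in the 8 livers on the diet. The lowest chow liver was above every liver on the diet, and the change was -3.39 ± 0.56 SE (edgeR, adjusted p = 4.8e-05), or -3.29 without replicate 3 (edgeR, adjusted p = 4.1e-05). Hnf4a, the central factor of hepatocyte identity, stood at 1203, 974, 1199, 1017 and 1217 CPM on chow and 462, 535 and 736 CPM (lowest, median, highest) on the diet. It fell by less, without overlap (-0.95 / -0.95). Onecut2 changed by -1.63 / -1.51, Prox1 by -1.50 / -1.37, and Ppara, the nuclear receptor of fatty acid oxidation, by -1.32 / -1.24. Cebpa (-0.021 / -0.0018) and Foxa2 (-0.28 / -0.16) did not pass the test. Many of these genes are long: the list had 13 falls with the length trend removed and 16 with replicate 3 left out as well.

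Hormone receptors fell beside them. Among the hormone receptor, growth hormone and IGF genes, 3 of 25 rose and 11 fell (5 and 12 without replicate 3), and the median log2 change was -0.66 / -0.58. This list is also one of long genes, with a median of 5979 exon bases. With the length trend removed 8 fell, and 10 with replicate 3 left out as well. By total counts 8 fell. Irs2, which relays the insulin signal, stood at 151, 67, 100.03, 199.6 and 123 CPM on chow and 3.27, 33.9 and 50.4 CPM (lowest, median, highest) on the diet, and the insulin receptor Insr changed by -1.45 / -1.35. The change of Irs2 was -2.02 / -1.86, without overlap. Ghr (-1.12 / -1.09), its target Igf1 (-0.92 / -1.01), and Thrb, the thyroid hormone receptor (-1.66 / -1.53), fell. Igfbp2, an IGF-binding protein of fetal liver, rose from 288 ± 107 to 1181 ± 484 CPM (2.04 / 1.86). Secreted hepatokines were close to the background, with 6 of 20 up and 3 down. Lect2 changed by 2.16 / 1.44 and Inhbe, an activin chain, by 1.85 / 1.68.

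Periportal functions fell. Of 17 periportal hepatocyte genes, 0 rose and 10 fell (1 and 13 without replicate 3), with a median log2 change of -0.88 / -0.95. Etnppl, which breaks down phosphoethanolamine, stood at 1114, 344, 202, 384 and 168 CPM in the 5 chow livers, against a lowest, median and highest value of 44.6, 68.5 and 108 CPM in the 8 livers on the diet. Chow livers were all above diet livers, and chow replicate 1 was the highest. The change was -2.66 / -2.67, or -1.98 without that library. Arg1, the last enzyme of the urea cycle, changed by -1.54 / -1.45, Cps1, its first, by -1.48 / -1.34, and Gls2, which feeds it with ammonia from glutamine, by -1.49 / -1.45. Glul, the pericentral glutamine synthetase, rose from 768 ± 188 to 1447 ± 156 CPM (0.91 / 0.94).

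Drug metabolism moved in both directions within families. Cytochrome P450 genes of families 1 to 4 had 10 members that rose and 31 that fell out of 63 measured (11 and 32 without replicate 3), with a median log2 change of -0.63 / -0.66. Cyp2b9 rose by 10.30 / 10.44 and its neighbour in the family Cyp2b10, a target of the receptor CAR, fell, with 34.7, 23, 20.3, 18.9 and 25.9 CPM on chow and 0, 0.184 and 0.504 CPM (lowest, median, highest) on the diet. No liver on the diet reached any chow liver (-6.88 / -6.88). Cyp2c29 stood at 2012, 2222, 2308, 2208 and 2323 CPM on chow and 21.6, 70.6 and 183 CPM (lowest, median, highest) on the diet, again without overlap (-4.75 / -4.62). Cyp3a11 changed by -2.18 / -2.05 and Cyp4a12a by -3.39 / -3.28. Cyp2e1 (0.10 / 0.26) and Cyp1a2 (-0.63 / -0.56), both pericentral, did not pass the test, nor did CAR itself, Nr1i3 (0.69 / 0.20). Of 51 conjugation enzymes, 7 rose and 24 fell (7 and 27 without replicate 3), with a median log2 change of -0.42 / -0.51. Sult1e1, the estrogen sulfotransferase, rose from 0.170 ± 0.0659 to 11.2 ± 4.17 CPM (6.04 / 6.11), and Ugt2b1 (-2.26 / -2.18) and Ugt2b38 (-4.18 / -4.18) fell. Among the bile acid and drug transporters, 8 of 31 rose and 15 fell (7 and 15 without replicate 3), and the median log2 change was -0.56 / -0.41. The bile acid importer Slc10a1 (-0.75 / -0.75) and exporter Abcb11 (-0.92 / -0.87) fell, and Abcg1, a cholesterol exporter of macrophages, rose (1.95 / 1.94). There were 0 rises and 15 falls among 16 major urinary protein genes (0 and 16 without replicate 3), at a median log2 change of -2.81 / -2.75. Mup17 changed by -6.21 / -6.37 and Mup21 by -1.90 / -2.10. Members of these P450, Ugt and Mup families are near copies, and how reads shared by copies were counted is not given in the sources used here, so single members are uncertain.

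Lipid synthesis fell at several steps. Of 27 lipogenesis and lipid droplet genes, 4 rose and 9 fell (5 and 11 without replicate 3), with a median log2 change of -0.17 / -0.23. Scd1, the stearoyl-CoA desaturase, fell (-5.98 / -5.87). Thrsp, a regulator of lipogenesis, stood at 133, 201, 190.4, 209.9 and 239.8 CPM in the 5 chow livers, against a lowest, median and highest value of 8.92, 18.7 and 46.7 CPM in the 8 livers on the diet. All 8 diet livers were below the chow livers, and the change was -3.14 ± 0.45 SE (edgeR, adjusted p = 1.0e-05), or -3.39 without replicate 3 (edgeR, adjusted p = 1.9e-06). Acacb, which makes the malonyl-CoA that curbs fatty acid oxidation, changed by -2.48 / -2.78, Acly, which makes cytosolic acetyl-CoA, by -1.39 / -1.39, and Gpam, the first step of glycerolipid synthesis, by -1.35 / -1.19. Plin4, a droplet coat protein, rose (2.02 / 1.34). Dgat2 (-0.37 / -0.30) and Plin2 (0.20 / 0.30) did not pass the test. Srebf1 passed without replicate 3 and not with it (-0.52 / -0.40).

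Choline and one-carbon genes, the pathway that the diet starves, fell in part. Of 33 genes of choline and one-carbon metabolism, 4 rose and 17 fell (3 and 21 without replicate 3), with a median log2 change of -0.50 / -0.57. Chdh, which oxidizes choline to betaine aldehyde, stood at 407, 419, 316, 395 and 309.8 CPM on chow and 92.7, 214 and 272 CPM (lowest, median, highest) on the diet (-0.94 / -0.85). Chpt1, the last step of phosphatidylcholine synthesis from choline, changed by -1.32 / -1.36, Pcyt1a, the limiting step, by -0.65 / -0.57 and the choline carrier Slc44a1 by -1.20 / -1.14. Every liver on the diet was below every chow liver for Chdh and Chpt1. The methionine adenosyltransferases parted, with the liver form Mat1a at -0.63 / -0.59 and Mat2a, the form of dividing and non-hepatocyte cells, at 52.4, 59, 66.4, 68.8 and 75.6 CPM on chow and 139, 153 and 226 CPM (lowest, median, highest) on the diet (1.32 / 1.22). Pemt, which makes phosphatidylcholine without choline, passed with all libraries (0.93 / 0.34), but not without replicate 3. It also missed when any 1 of the 5 chow libraries, or 8-week replicate 2 or 4, was left out, with changes from 0.89 to 0.97.

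Phospholipid remodelling genes had 21 members that rose and 5 that fell out of 32 measured (21 and 7 without replicate 3), with a median log2 change of 0.70 / 0.61. Pla2g7, a secreted hydrolase of platelet-activating factor made by macrophages, stood at 4.12, 4.33, 4.45, 4.81 and 5.97 CPM on chow and 18.6, 58.6 and 69.5 CPM (lowest, median, highest) on the diet (3.39 / 3.50). The groups did not overlap. Lpcat2 changed by 1.69 / 1.80 and Gpat3 by 1.99 / 2.01, while Gpat4 fell (-1.05 / -1.09) and Lpcat3 did not pass the test (-0.15 / -0.13). Of 31 sphingolipid genes 11 rose and 9 fell, of which 0 fell by total counts. Smpd3, a sphingomyelinase, changed by 3.43 / 3.13 and Cerk, ceramide kinase, by 1.69 / 1.71. Among the peroxisomal genes, 4 of 32 rose and 15 fell (3 and 20 without replicate 3), and the median log2 change was -0.43 / -0.38. Hacl1, of alpha-oxidation, changed by -1.77 / -1.68. By total counts 8 of the list fell.

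Transcripts of the mitochondrial genome fell. They took 4.59% ± 0.435 (SD, n = 5) of all counts on chow and 2.50% ± 0.983 (SD, n = 8) on the diet, an exact two-sided permutation p of 7.8e-04 over 1287 label arrangements. The chow livers lay between 4.23% and 5.34% and no liver on the diet was above 3.18%. Replicate 3 was lowest at 0.249%, and without it the diet mean was 2.82% (exact permutation p = 0.00126). Of 13 genes of the mitochondrial genome, 0 rose and 9 fell (0 and 11 without replicate 3), with a median log2 change of -0.89 / -0.77. By total counts 4 fell. mt-Nd5, a subunit of complex I, changed by -1.83 / -1.68 and mt-Nd2, another, by -1.44 / -1.28. Nuclear genes of oxidative phosphorylation mostly did not pass the test, with 1 of 34 up and 2 down. The falls numbered 6 without replicate 3, 9 with the length trend removed and 16 with both, and the median change went from 0.31 to -0.24. Sdha, of complex II, changed by -0.48 / -0.45.

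Glucose metabolism genes were called about as often as all genes, in both directions. In glycolysis and gluconeogenesis 9 of 30 genes rose and 5 fell (9 and 8 without replicate 3). Pkm, the pyruvate kinase of non-hepatocyte cells, stood at 4.89, 4.76, 4.79, 4.23 and 5.67 CPM on chow and 16.8, 32.8 and 137 CPM (lowest, median, highest) on the diet. Diet and chow values were apart (3.21 / 2.70). The liver form Pklr fell (-0.79 / -0.75). The hexokinase Hk3 changed by 2.71 / 2.63 and the lactate exporter Slc16a3 by 3.49 / 2.99 (4.11 without chow replicate 5). G6pc, glucose-6-phosphatase, which releases glucose to the blood, stood at 1942, 1141, 919, 2225 and 1144 CPM in the 5 chow livers, against a lowest, median and highest value of 34.1, 295 and 562 CPM in the 8 livers on the diet. No overlap was present, and the change was -2.21 ± 0.37 SE (edgeR, adjusted p = 5.5e-05), or -2.05 without replicate 3 (edgeR, adjusted p = 2.7e-07). Pck1, of gluconeogenesis, changed by -1.77 / -1.60.

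Tryptophan breakdown fell with no rise. Tryptophan and NAD genes had 0 members that rose and 10 that fell out of 21 measured (0 and 14 without replicate 3), with a median log2 change of -0.52 / -0.75. Afmid, which makes kynurenine, stood at 102, 73.9, 68, 74.8 and 68 CPM in the 5 chow livers, against a lowest, median and highest value of 4.38, 10.2 and 17.3 CPM in the 8 livers on the diet. Every chow liver was above every liver on the diet, and the change was -2.82 ± 0.25 SE (edgeR, adjusted p = 2.8e-08), or -2.72 without replicate 3 (edgeR, adjusted p = 3.0e-09). Tdo2, the first step, changed by -0.93 / -0.82, Kmo by -1.08 / -0.99 and Acmsd, which diverts the pathway from NAD, by -1.54 / -1.66 (-0.63 without chow replicate 1). Nampt, of NAD salvage, did not pass the test (-0.29 / -0.16). Among the amino acid transporters, 11 of 26 rose and 8 fell (12 and 9 without replicate 3), and the median log2 change was 0.090 / -0.061. Those that rose held the creatine carrier Slc6a8 (2.07 / 1.71) and the neutral amino acid exchangers Slc1a4 (1.73 / 1.75) and Slc1a5 (1.58 / 1.49). The falls held the hepatocyte arginine importer Slc7a2 (-1.72 / -1.57) and Slc38a4 (-1.13 / -1.10).

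Division genes rose. Of 33 cell cycle genes, 28 rose and 1 fell (28 and 1 without replicate 3), with a median log2 change of 1.92 / 2.05. Ccnd1, cyclin D1, stood at 27.6, 23.5, 26.3, 19.8 and 27.7 CPM in the 5 chow livers, against a lowest, median and highest value of 160.0, 215 and 349 CPM in the 8 livers on the diet. The 2 groups shared no value, and the change was 3.26 ± 0.20 SE (edgeR, adjusted p = 3.7e-10), or 3.15 without replicate 3 (edgeR, adjusted p = 1.0e-10). Cdc20, which triggers anaphase, stood at 0.956, 1.0, 0.776, 0.463 and 0.740 CPM on chow and 8.92, 16.6 and 28.9 CPM (lowest, median, highest) on the diet (4.41 / 4.30). Plk1, a mitotic kinase, changed by 3.38 / 3.52 and Mcm5, of DNA replication, by 0.90 / 0.91, while Mcm4 (-0.13 / 0.0044) and E2f1 (0.18 / 0.085) did not pass the test and thymidine kinase, Tk1, fell (-0.95 / -1.23). There were 11 rises and 0 falls among 24 histone genes (11 and 0 without replicate 3), at a median log2 change of 0.64 / 0.57. Genes of fetal liver and liver tumours had 12 members that rose and 0 that fell out of 19 measured (12 and 0 without replicate 3), with a median log2 change of 1.35 / 1.15. Ly6d, a surface protein, stood at 0.846, 0.803, 0.944, 0.811 and 2.11 CPM in the 5 chow livers, against a lowest, median and highest value of 8.31, 37 and 135 CPM in the 8 livers on the diet. No diet liver was as low as the highest chow liver, and the change was 5.52 / 5.19. Squamous epithelium also makes Ly6d. Replicate 2 held the most Ly6d, with squamous transcripts summing to 13 CPM, and replicate 3 held 122 CPM of it, with 2015 CPM of squamous transcripts. The part of squamous epithelium in this was not tested. Afp, alpha-fetoprotein, rose from 0.800 ± 0.225 to 5.39 ± 2.40 CPM (2.75 / 2.67) and Akr1b8 changed by 2.98 / 2.33. H19 (0.79 / 0.28) and Igf2 (0.18 / 0.020) did not pass the test.

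More ribosomal protein genes were called with replicate 3 than without it. With all libraries 41 of 69 rose and 0 fell. The rises numbered 24 without replicate 3, 15 without replicates 3 and 4, and 13 without replicate 3 and with the length trend removed. Summed over the list, replicate 3 held 14780.5 CPM and replicate 2 held 3479.9 CPM, against 1559.8 to 1732 CPM on chow. These genes have many near-identical pseudogenes, so single members are uncertain. Proteasome genes were below the background, with 5 of 38 up, of which 3 were the immunoproteasome subunits Psmb8, Psmb9 and Psmb10, and 3 down (5 without replicate 3). By total counts 18 rose.

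Non-coding genes included the imprinted cluster of Meg3. Of 23 non-coding RNA genes of the list, 10 rose and 1 fell (11 and 4 without replicate 3), with a median log2 change of 0.53 / 0.44. Meg3, expressed from the maternal copy of the cluster, stood at 3.75, 1.03, 1.75, 0.724 and 1.75 CPM in the 5 chow livers, against a lowest, median and highest value of 27.1, 47.7 and 68.7 CPM in the 8 livers on the diet. Diet and chow livers did not overlap (4.73 / 4.65), and its neighbours Rian (3.75 / 3.93) and Mirg (5.92 / 5.74) rose as well. Neat1, the scaffold of nuclear paraspeckles, rose from 123 ± 19.8 to 874 ± 272 CPM (2.83 / 2.90). Malat1, encoded beside it, passed without replicate 3 and not with it (-0.41 / -0.70).

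**Figure D4:**
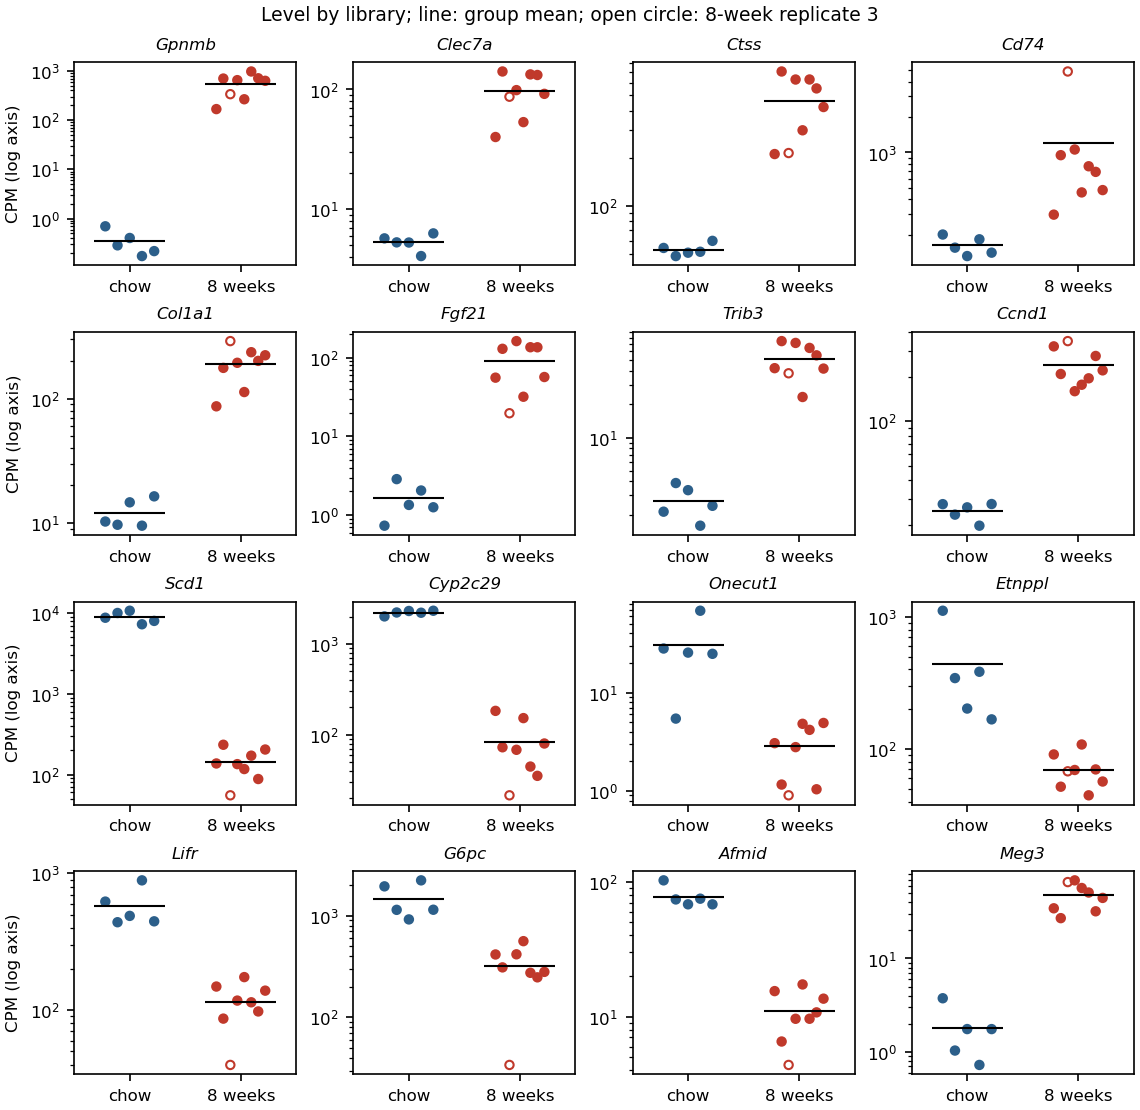
Level of 16 genes in each chow and 8-week library, in CPM on a log axis; each circle is a library, lines are group means, and the open circle is 8-week replicate 3. The groups do not overlap for any of the 16 genes, which was a condition for naming them.

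By mass of transcript, the largest gains and losses fell mostly on abundant hepatocyte products, which a ranking by CPM favours. The 8 largest gains in mean CPM were Alb, Apoe, Apoa1, Hpx, Ahsg, Hp, Apoa2 and Trf, of which replicate 3 held the highest value each time. This ranking and that of the losses below used all 8 diet libraries and were not repeated without replicate 3. Alb (0.40 / 0.26) and Apoa2 (0.88 / 0.027) did not pass the test, and the level of Apoa2 was 5959 ± 542 CPM on chow and 10931 ± 13795 CPM after 8 weeks, or 6112 ± 2299 CPM without replicate 3. Apoe, apolipoprotein E, was 15977 ± 1361 CPM on chow and 31493 ± 37599 CPM after 8 weeks, or 18304 ± 5068 CPM without replicate 3, and did not pass the test (0.98 / 0.19). Apoa1 passed with all libraries (1.35 / 0.38) and not without replicate 3. It also missed in each of the 5 fits that left out 1 chow library, at 1.37, 1.33, 1.36, 1.38 and 1.31. Hpx, hemopexin, which binds heme, passed in both (1.39 / 0.86). Hp, haptoglobin (1.12 / 0.60), missed without replicate 3 or chow replicate 1, 2 or 4, and Ahsg, fetuin-A (0.84 / 0.38), without chow replicate 2, 3, 4 or 5. The largest losses were Serpina1e, Serpina3k, Scd1, mt-Cytb, Cyp3a11, mt-Nd2, Mup3 and Apob. Serpina1e, an alpha-1-antitrypsin gene, stood at 17237, 12922, 14500.1, 17288 and 12489 CPM on chow and 636, 2798 and 5509.5 CPM (lowest, median, highest) on the diet (-2.20 / -2.31). Apob, whose product wraps each exported lipoprotein, stood at 7663, 6486, 6455, 8842 and 7601 CPM on chow and 1959, 2658 and 3793 CPM (lowest, median, highest) on the diet, without overlap. It changed by -1.42 / -1.41, and by -0.83 with the length trend removed, its transcript being long. The 20 most abundant genes were chosen by mean CPM over all 21 libraries, most of them on the diet, which favours genes high on the diet. Trf, at 3066 CPM on chow, was among them and Scd1, at 8979 CPM on chow, was not, so the permutation p also reflects that choice. These 20 genes took 22.9% ± 0.872 (SD, n = 5) of counts on chow and 27.2% ± 4.35 (SD, n = 8) on the diet (exact two-sided permutation p = 0.0381). The diet mean was 25.9% without replicate 3 (exact permutation p = 0.0366), and replicate 3 was highest at 36.3%. The exact permutation p was above 0.05, and at most 0.0869, when any 1 of the 5 chow libraries or 8-week replicate 1, 4 or 5 was left out.

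Pancreatic enzymes were called higher and varied most within the diet group. All 12 measured pancreas genes passed the test, also without replicate 3, and without replicates 3 and 4 8 did. Ctrb1, chymotrypsinogen, held 3238 CPM in replicate 4 against a median of 4.77 CPM over the 8 livers, and 0 in replicate 1. Its change of 11.33 / 11.53 was 7.11 without replicate 4, where the adjusted p was 0.00408 (edgeR), and 12.29 without chow replicate 3. Pnlip, pancreatic lipase, changed by 11.16 / 11.35, or 7.13 without replicate 4. Cela2a, an elastase, was separated between the groups and changed by 7.52 / 7.71, or 3.62 without replicate 4. The SD of log2 CPM among the 7 diet livers other than replicate 3 was highest for Ctrb1 (5.38), and the 8 most variable genes were all pancreatic and highest in replicate 4. Across the 8358 genes at 10 CPM or more the median SD was 0.258 in those 7 livers and 0.120 in the 5 chow livers.

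**Figure D5:**
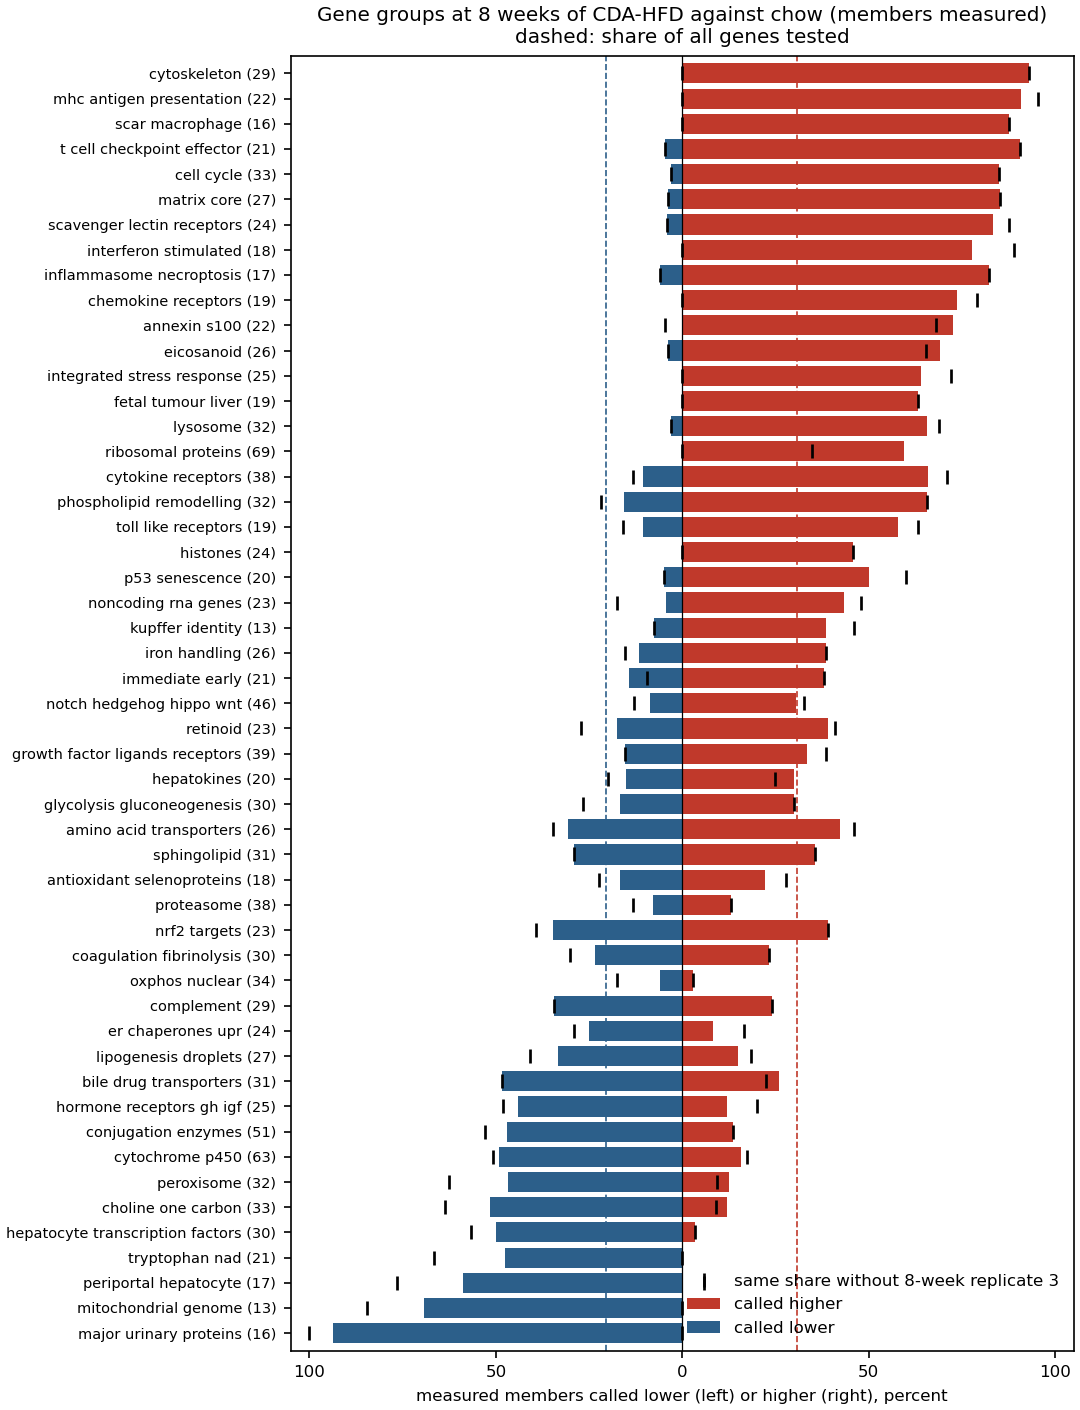
Percent of the measured members of each gene group that were called lower (left, blue) or higher (right, red) at 8 weeks of CDA-HFD; numbers in brackets are members measured, dashed lines are the shares of all genes tested, and black marks are the shares without 8-week replicate 3. Cytoskeletal genes have the highest share of rises net of falls and major urinary protein genes the highest of falls.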

How the data were processed

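Total RNA of liver was extracted with a Qiagen RNeasy kit and made into stranded libraries with the TruSeq total RNA kit, per the labels' protocols. The deposited values were raw read counts per Ensembl gene, with GRCm38 as the build that the submitters' processing notes name. How reads were aligned and counted, on which annotation, and what became of reads that match several genes is not given in the sources used here. All 21 single-sample files held the same counts as the table of the series. Symbols for 52489 of 52636 gene IDs, biotypes and exon lengths came from the GENCODE M21 annotation of GRCm38, and promoter sequences from RefSeq.

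Counts were tested with edgeR 4.0.16 in R 4.3.3 (filterByExpr by group, TMM scaling, glmQLFit and glmQLFTest, Benjamini-Hochberg), with 1 mean per group and all 21 libraries in the fit. The procedure was tested on simulated counts. Alternatives were DESeq2 1.42.0, its size factors, total counts, no filter, only the 13 libraries, each library left out in turn, and 8-week replicates 3 and 4 left out together. Removal of a smooth exon length trend was added after seeing the data. Values per library were compared by exact two-sided permutation tests. Replicate numbers follow the order of deposition and pair nothing.

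Named genes were those of each list, or of all genes, with the largest changes among called genes whose groups did not overlap, the largest gains and losses in CPM, the most variable, and genes of a list that were not called. Others, such as Pdcd1, Cd4, Tk1, Trp53inp1, Pemt and Atf4, were chosen after their values were seen. The members and the gene lists were chosen with earlier results of these data known.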

Additional observations from a re-analysis of the deposited data

Results flagged for a closer look

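A library stood apart from the others of its group in 25 of 106 sets of values, each set being the libraries of 1 group for 1 measure. The gap to the nearest other library, divided by the range of the group, was above Dixon's 95% critical value of 0.710 for 5 libraries or 0.526 for 8. Chance gives about 1 such set in 20 if the values are normal and the sets independent. These sets share libraries, and 8-week replicates 3 and 4 were known beforehand to stand apart. The 25 sets therefore cannot be read against that rate. Replicate 3 of the 8-week group accounted for 17 of the 25. It was highest in the summed level of skeletal muscle genes (3558 CPM, ratio 0.880), squamous epithelium genes (2015 CPM, ratio 0.848), fat genes (44.5 CPM, ratio 0.819), smooth muscle genes (679 CPM, ratio 0.908), red cell genes (1129 CPM, ratio 0.860), mesothelium genes (46.6 CPM, ratio 0.729), ribosomal protein genes (14780.5 CPM, ratio 0.852) and nuclear oxidative phosphorylation genes (21314 CPM, ratio 0.749). It was lowest in the mitochondrial share (0.249%, ratio 0.674) and mitochondrial genome genes (5027 CPM, ratio 0.606). Among single genes it was highest for Cd74 (4885 CPM, ratio 0.834), Lcn2 (1695 CPM, ratio 0.604), Mat2a (226 CPM, ratio 0.681), Oas1a (43.4 CPM, ratio 0.780), Pkm (137 CPM, ratio 0.718) and Thrsp (46.7 CPM, ratio 0.539), and lowest for Hspa5 (463 CPM, ratio 0.596). Replicate 2 of the 8-week group was highest in Me1 (26.7 CPM, ratio 0.575). Replicate 4 of the 8-week group was highest in exocrine pancreas genes (10289 CPM, ratio 0.955). Chow replicate 1 was highest in Afmid (102 CPM, ratio 0.800) and Etnppl (1114 CPM, ratio 0.771). Chow replicate 5 was highest in skeletal muscle genes (585 CPM, ratio 0.921), smooth muscle genes (58 CPM, ratio 0.827), Lcn2 (177 CPM, ratio 0.714) and Ly6d (2.11 CPM, ratio 0.892). Each change of a gene given here is stated above with and without replicate 3.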

How the results depend on the processing

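Counts of called genes kept within 1.5 times under the alternatives tried, with a pair of exceptions. With only the 13 libraries, 3356 genes rose, and by total counts 1669 fell. Leaving out 1 library at a time gave 4518 to 5502 rises and 3045 to 4386 falls. The mitochondrial share differed by -2.19 to -1.77 percentage points (8 weeks minus chow) in those fits, with an exact permutation p of at most 0.00202. The share of the 20 most abundant genes, chosen with the diet libraries included, differed by 2.98 to 5.0 points. Its exact permutation p was above 0.05 in 8 of the 13 (highest 0.0869), and without replicates 3 and 4 together the difference was 2.83 (exact permutation p = 0.0541). Of 207 named genes that were called, 185 kept their direction and call in every alternative and none reversed. 14 lost their call by total counts and 8 with the length trend removed. Npc1, not called, turned to 0.27 with the length trend removed and to 0.27 without replicate 3 as well. Group counts not given above also moved: by total counts 9 lipogenesis and 7 antioxidant genes rose, and 5 amino acid transporters and 3 phospholipid genes fell. With the length trend removed 10 glycolysis, 5 iron, 5 hepatokine and 6 proteasome genes fell, and 22 ribosomal protein genes rose. Iron falls also numbered 5, and those of oxidative phosphorylation 6, by DESeq2 size factors. The causes were not tested. No paired analysis was possible because the replicate numbers follow the order of deposition only. Genes near 0 on chow rest on few counts.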
